A study of Mus musculus with 12 samples.

Results

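The cathepsins are the proteases of the lysosome. The 10 lysosomal cathepsin genes described here (*Ctsa*, *Ctsb*, *Ctsc*, *Ctsd*, *Ctsf*, *Ctsh*, *Ctsk*, *Ctsl*, *Ctss* and *Ctsz*) were chosen by their gene symbol among the 54532 genes of the count table, and all 10 were among the 14894 genes tested. *Ctsl* rose in mouse bone marrow cultures at both doses of indole-3-propionic acid (IPA), *Ctsd* rose at 50 µM, and *Ctsc* fell at 50 µM. *Ctss*, *Ctsk* and *Ctsc* fell from 10 µM to 50 µM, with 4 libraries in each group. The rise of *Ctsl* at 10 µM did not pass its test in every fit that was run.

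IPA is a product of tryptophan breakdown by gut bacteria, and the study asked how it changes the myeloid cells that arise from bone marrow in culture. Bone marrow of wild-type C57BL/6 mice was grown in medium with GM-CSF and IL-6, cytokines that drive the formation of myeloid-derived suppressor cells. The cultures held vehicle (0.1% DMSO), 10 µM IPA or 50 µM IPA, which were renewed with the medium on day 3, and the cells of all 12 libraries were harvested on day 5 without a sort. Library totals ran from 22417710 to 26442653 assigned reads with vehicle, from 20848854 to 28038612 at 10 µM and from 20451312 to 26925143 at 50 µM. The labels do not say whether the 4 libraries of a group came from separate mice or cultures, so p-values measure the spread between these libraries, which may be technical. In bulk RNA, fewer cells of a type and less RNA per cell cannot be told apart.

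Cathepsins are made as inactive proenzymes, carried to the lysosome mostly on mannose 6-phosphate receptors, and activated there by cleavage at acid pH. Most belong to the papain family of cysteine proteases, *Ctsd* encodes an aspartic protease, and *Ctsa* encodes a serine carboxypeptidase. In macrophages and dendritic cells they degrade engulfed protein and trim the invariant chain of MHC class II, and in neutrophil precursors cathepsin C activates the serine proteases of the granules.

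Stretches of promoter sequence are shown so that members that moved in the same or in opposite directions can be read side by side. The motifs were chosen with the results known. RefSeq promoter windows on GRCm38.p6 (250 bases before the transcription start) were found for 8 of the 10 genes, with 2 windows for *Ctsa*, and there was no entry for *Ctsb* or *Ctsh*. Each window was searched for 3 motifs on both strands. CACGTG, the core of the element bound by TFEB and other E-box factors, stood in 4 of the 9 windows and in 6.02% of all 32851 windows. GAGGAA, a core sequence of sites for PU.1 that reads TTCCTC on the opposite strand, stood in 3 of the 9 windows and in 23.3% of all windows. TGANTCA, the AP-1 core, stood in none of the 9 windows and in 6.75% of all windows. No match overlapped a match to another motif. A match is a description of the letters and not evidence of binding.

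The windows of *Ctsl*, *Ctsd*, *Ctsf* and *Ctsa* held CACGTG, which is in capitals in the following 30-base stretches, read 5′ to 3′ on the strand of the gene. They lie at chr13:64370739-64370768 (minus strand), chr7:142388048-142388077 and chr7:142387908-142387937 (both minus strand), chr19:4855074-4855103 (plus strand) and chr2:164833743-164833772 (plus strand).
Ctsl, from base -236: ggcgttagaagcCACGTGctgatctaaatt
Ctsd, from base -245: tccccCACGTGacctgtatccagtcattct
Ctsd, from base -98: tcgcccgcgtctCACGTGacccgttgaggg
Ctsf, from base -79: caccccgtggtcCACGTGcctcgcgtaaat
Ctsa, from base -12: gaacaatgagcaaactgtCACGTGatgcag

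The bases named with each stretch are those at which the motif begins, counted back from the RefSeq start. These starts lie inside the genes as GENCODE draws them, by 370 bases for *Ctsl*, 211 for *Ctsd*, 35 for *Ctsf* and 900 for the second start of *Ctsa*, to which its stretch belongs. Annotated exons of the same gene cover 48, 211, 35 and 164 of the 250 window bases, in that order.

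The windows of *Ctsc*, *Ctss* and *Ctsk*, which fell from 10 µM to 50 µM, held GAGGAA and not CACGTG, whereas *Ctsa*, which also fell between the doses, held CACGTG. They are given whole, on the plus strand, with that motif in capitals, in whichever of its orientations it stands, and no annotated exon overlaps them. They lie at chr7:88277835-88278084, chr3:95526536-95526785 and chr3:95498960-95499209.
Ctsc: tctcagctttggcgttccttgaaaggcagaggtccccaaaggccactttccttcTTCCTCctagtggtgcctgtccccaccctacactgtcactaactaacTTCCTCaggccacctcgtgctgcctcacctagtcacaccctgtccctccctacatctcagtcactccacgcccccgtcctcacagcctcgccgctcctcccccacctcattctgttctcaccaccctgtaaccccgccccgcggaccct
Ctss: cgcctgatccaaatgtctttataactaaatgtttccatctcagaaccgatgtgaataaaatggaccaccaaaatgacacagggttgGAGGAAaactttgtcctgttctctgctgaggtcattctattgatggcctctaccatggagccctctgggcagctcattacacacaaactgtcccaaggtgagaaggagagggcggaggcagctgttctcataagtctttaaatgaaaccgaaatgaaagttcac
Ctsk: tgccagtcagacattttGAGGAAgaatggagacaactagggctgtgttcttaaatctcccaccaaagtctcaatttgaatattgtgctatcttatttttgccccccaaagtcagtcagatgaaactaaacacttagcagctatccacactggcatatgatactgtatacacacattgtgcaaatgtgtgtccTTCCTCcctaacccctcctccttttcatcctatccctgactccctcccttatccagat

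The *Ctsz* window held none of the 3 motifs.

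The 10 genes together took 0.579% ± 0.0518 of the reads of a library with vehicle, 0.730% ± 0.0540 at 10 µM and 0.647% ± 0.0225 at 50 µM (mean ± SD, n = 4). The lowest library at 10 µM (0.677%) lay above the highest with vehicle (0.639%), whereas the 50 µM libraries (0.621% to 0.670%) overlapped the vehicle group. Expression is given below as CPM, the counts of a gene scaled to a common library size by TMM over the 12 libraries. Differences are log2 fold changes with their standard error (SE), and adjusted p-values are those of edgeR's quasi-likelihood test over all 14894 genes, with a threshold of 0.05. The 3 comparisons share libraries with each other, and the values of each are given side by side.

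At 10 µM, 1 of the 10 cathepsins rose (*Ctsl*) and none fell, where 0.329% of all tested genes rose and 0.0806% fell. The log2 fold change was above 0 for 9 of the 10 and for 48.2% of all genes, with a median of 0.30 against -0.01 over all genes. An unadjusted p under 0.05 was found for 8 of the 10 and for 8.78% of all genes. The count of rises at 10 µM depended on the tool and on single libraries, with 4 rises by DESeq2 (*Ctsa*, *Ctsb*, *Ctsd* and *Ctsl*) and 0 to 3 in edgeR fits that left out a library. An edgeR fit that took equal replicate numbers as pairs called 0 of the cathepsins and 3 of all genes. The 4 libraries at 10 µM lay above all 4 vehicle libraries for 5 of the 10 (*Ctsl*, *Ctsb*, *Ctsd*, *Ctsa* and *Ctsk*), as they did for 3.57% of all genes, and they lay below them for none, against 2.56% of all genes.

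At 50 µM, 2 cathepsins rose against vehicle (*Ctsl* and *Ctsd*) and 1 fell (*Ctsc*), where 7.00% of all genes rose and 6.50% fell. The median log2 fold change of the 10 was 0.06, near the 0.01 of all genes. It was above 0 for 6 of the 10 and for 51.8% of all genes. An unadjusted p under 0.05 was found for 5 of the 10 and for 27.9% of all genes. The groups did not overlap for 3 higher members (*Ctsl*, *Ctsd* and *Ctsb*) and for 1 lower member (*Ctsc*), against 9.45% and 10.5% of all genes.

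Between the doses, 4 of the 10 fell from 10 µM to 50 µM (*Ctsc*, *Ctss*, *Ctsk* and *Ctsa*) and 1 rose (*Ctsl*), where 7.85% of all genes fell and 7.52% rose. The median was -0.19 against 0.01 over all genes, and the same 5 genes had groups that did not overlap, against 10.9% of all genes lower and 9.43% higher. The log2 fold change was above 0 for 2 of the 10 and for 51.4% of all genes. An unadjusted p under 0.05 was found for 7 of the 10 and for 29.5% of all genes. Of the 10, 7 had their highest mean at 10 µM, *Ctsl* and *Ctsd* had theirs at 50 µM, and *Ctsf* had its highest mean with vehicle.

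**Figure D1:**
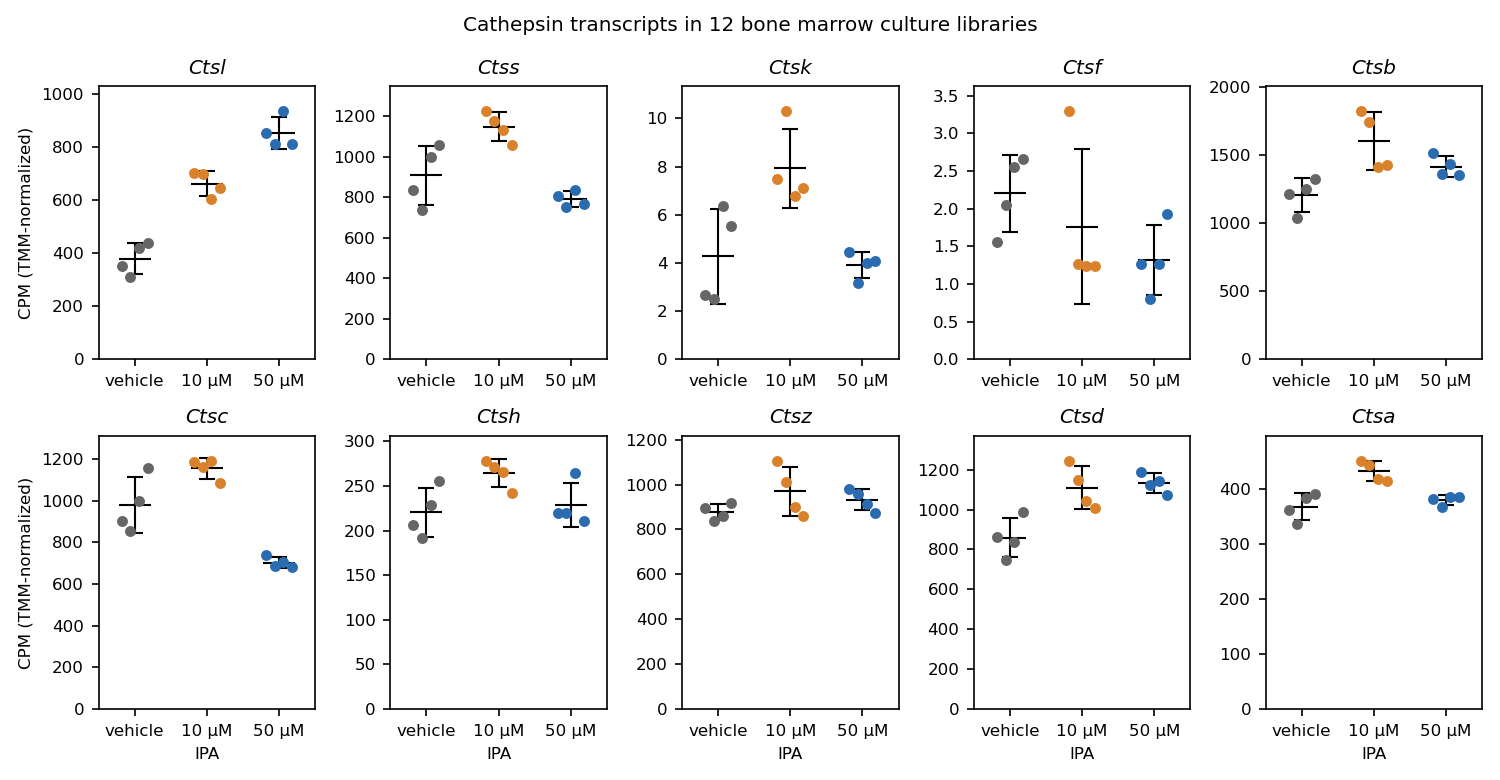
Expression of the 10 cathepsin genes (CPM, linear axes from 0) in each library, in 3 groups of 4 libraries. Points are libraries in the order of their replicate numbers, and black marks are the mean ± SD. *Ctsl* rose from a mean of 379.7 CPM with vehicle to 853 CPM at 50 µM, and *Ctsc* was lowest at 50 µM, with a mean of 703 CPM.

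*Ctsl* (chr13:64359337-64370890, minus strand; gene positions come from GENCODE M21, build GRCm38) encodes cathepsin L, an endopeptidase of broad specificity. With vehicle, replicates 1 to 4 held 349.9, 310.2, 421 and 438 CPM. At 10 µM they held 704, 697, 604 and 644 CPM. At 50 µM they held 852, 810.4, 937 and 812 CPM. The 3 groups did not overlap, and each step of dose stood above the one before it.

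The log2 fold change of *Ctsl* was 0.80 at 10 µM (SE 0.10, adjusted p = 0.0102), 1.17 at 50 µM (SE 0.11, adjusted p = 1.54e-05) and 0.37 from 10 µM to 50 µM (SE 0.07, adjusted p = 0.00188). Its share of the reads on the 10 cathepsins went from between 6.14% and 7.04% with vehicle to between 8.66% and 9.56% at 10 µM and between 12.7% and 14.2% at 50 µM. The call at 10 µM was lost without vehicle replicate 1 (adjusted p = 0.0652) or without 10 µM replicate 2 (adjusted p = 0.0705), within a range of 0.00176 to 0.0705 over the 8 fits that left out a library, while the log2 fold change stayed between 0.72 and 0.88. The calls at 50 µM and between the doses held in every such fit. In a fit that took equal replicate numbers as pairs, the call at 10 µM was also lost, at 0.81 (adjusted p = 0.170), while the calls at 50 µM and between the doses held. *Ctsl* shares exonic bases with the antisense gene *Gm47123* and the pseudogene *Gm49230*, which had 0 counts in all 12 libraries.

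*Ctsc* (chr7:88278085-88310888, plus strand) encodes cathepsin C, or dipeptidyl peptidase I, which removes dipeptides and activates granule serine proteases. Its vehicle libraries held 902, 855, 997 and 1159 CPM. At 10 µM they held 1186, 1162, 1192 and 1083 CPM. At 50 µM they held 742, 686, 705 and 680.1 CPM. All 50 µM libraries lay below all others, while 10 µM replicate 4 lay inside the vehicle range.

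*Ctsc* fell at 50 µM, by 0.47 on the log2 scale against vehicle (SE 0.09, adjusted p = 0.00464) and by 0.71 against 10 µM (SE 0.06, adjusted p = 1.04e-06). Both calls held without any one library. At 10 µM the log2 fold change of 0.24 (SE 0.09, adjusted p = 0.413) did not pass. It passed without vehicle replicate 4, at 0.33 (adjusted p = 0.0386, within 0.0386 to 0.767 over the fits that left out a library). *Ctsc* made up between 16.03% and 17.7% of cathepsin reads with vehicle and between 10.6% and 11.1% at 50 µM.

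*Ctss* (chr3:95526786-95556403, plus strand) encodes cathepsin S, an endopeptidase that trims the invariant chain in antigen-presenting cells. It held 837, 738, 997 and 1057 CPM with vehicle. It held 1225, 1173, 1131 and 1055 CPM at 10 µM. It held 807, 749, 835 and 766 CPM at 50 µM. The 10 µM libraries lay above all 50 µM libraries, and the vehicle group reached into both.

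From 10 µM to 50 µM, *Ctss* fell by 0.53 on the log2 scale (SE 0.06, adjusted p = 3.50e-05). Against vehicle its log2 fold change was 0.34 at 10 µM (SE 0.10, adjusted p = 0.276) and -0.19 at 50 µM (SE 0.10, adjusted p = 0.245), and neither passed. The second passed without vehicle replicate 2, at -0.29 (adjusted p = 0.0398, within 0.0398 to 0.492 over the fits that left out a library).

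*Ctsk* (chr3:95499256-95509362, plus strand) encodes cathepsin K, the collagen-degrading protease of osteoclasts, and lies next to *Ctss*. Its counts were low, 71, 67, 142 and 139 reads with vehicle, 207, 213, 180.0 and 155 reads at 10 µM, and 91, 86, 82 and 97 reads at 50 µM. In CPM the vehicle libraries ranged from 2.49 to 6.36, the 10 µM libraries from 6.77 to 10.3 and the 50 µM libraries from 3.15 to 4.45. The vehicle libraries fell into a lower pair, replicates 1 and 2, and a higher pair, replicates 3 and 4, on either side of the 50 µM range.

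*Ctsk* fell by 1.01 on the log2 scale from 10 µM to 50 µM (SE 0.17, adjusted p = 0.000869). At 10 µM its log2 fold change against vehicle, 0.90 (SE 0.29, adjusted p = 0.294), did not pass the test. At 50 µM it was -0.11 (SE 0.29, adjusted p = 0.840), with a 95% interval from -0.73 to 0.50 that leaves a change of either direction possible, and it was 0.14 without vehicle replicate 3 and 0.04 without vehicle replicate 4.

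*Ctsf* (chr19:4855130-4860918, plus strand), which encodes cathepsin F, another papain-family endopeptidase, was the lowest of the 10. Its counts were 41, 55, 57 and 67 reads with vehicle, 91, 26, 33 and 27 reads at 10 µM, and 26, 22, 26 and 46 reads at 50 µM. At 10 µM, replicate 1 stood apart from the other 3 libraries. Its log2 fold changes were -0.31 at 10 µM (SE 0.36), -0.73 at 50 µM (SE 0.31) and -0.43 between the doses (SE 0.38), with adjusted p-values of 0.899, 0.140 and 0.498. Without 10 µM replicate 1 they were -0.82 at 10 µM and 0.08 between the doses, and neither passed. No difference of *Ctsf* passed at this depth, and the 95% interval at 50 µM ran from -1.40 to -0.07.

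*Ctsb* (chr14:63122462-63145923, plus strand) encodes cathepsin B, which trims dipeptides from the carboxyl end and also cuts internally, and it had the most reads of the 10. It held 1211, 1037, 1250.4 and 1326 CPM with vehicle. It held 1823, 1745, 1410.4 and 1425 CPM at 10 µM. It held 1517, 1356, 1430.4 and 1349 CPM at 50 µM. Every treated library lay above every vehicle library, by a narrow margin for 50 µM replicate 4, and the treated groups overlapped each other.

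The log2 fold change of *Ctsb* was 0.41 at 10 µM (SE 0.10, adjusted p = 0.148), 0.24 at 50 µM (SE 0.08, adjusted p = 0.0819) and -0.18 between the doses (SE 0.08, adjusted p = 0.168), and none passed. The value at 50 µM passed without vehicle replicate 4, at 0.29 (adjusted p = 0.0179, within 0.0179 to 0.187 over the fits that left out a library). *Ctsb* shares exonic bases with *Fdft1* on the opposite strand, at a mean of 57.4 CPM, and the strand setting of the counting is not given in the sources used here.

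*Ctsh* (chr9:90054152-90076089, plus strand) encodes cathepsin H, an aminopeptidase. It ranged from 191 to 256 CPM with vehicle, from 242 to 278 CPM at 10 µM and from 210.5 to 265 CPM at 50 µM, so that all groups overlapped. Its log2 fold changes of 0.26 (SE 0.09, adjusted p = 0.349), 0.06 (SE 0.10, adjusted p = 0.758) and -0.21 between the doses (SE 0.08, adjusted p = 0.0820) did not pass. The last passed without 50 µM replicate 3, at -0.28 (adjusted p = 0.00835), and without 10 µM replicate 4, at -0.25 (adjusted p = 0.0489), within 0.00835 to 0.220 over the fits that left out a library.

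*Ctsz* (chr2:174427493-174439039, minus strand) encodes cathepsin Z, a carboxypeptidase that removes single residues. It ranged from 835 to 919 CPM with vehicle, from 861 to 1106 CPM at 10 µM and from 875 to 982 CPM at 50 µM. It showed the smallest spread of values over the 3 comparisons. Its log2 fold changes were 0.14 (SE 0.08, adjusted p = 0.683), 0.09 (SE 0.07, adjusted p = 0.399) and -0.05 (SE 0.08, adjusted p = 0.692), with 95% intervals that together ran from -0.21 to 0.32.

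*Ctsd* (chr7:142375911-142388038, minus strand) encodes cathepsin D, the main aspartic protease of the lysosome. It held 863, 749, 838 and 988 CPM with vehicle. It held 1245, 1147, 1041 and 1008 CPM at 10 µM. It held 1189, 1123, 1144 and 1073 CPM at 50 µM. All treated libraries lay above all vehicle libraries, and the 50 µM libraries lay inside the range of the 10 µM group.

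*Ctsd* rose at 50 µM by 0.41 on the log2 scale (SE 0.09, adjusted p = 0.00720), and the call held without any one library. At 10 µM the log2 fold change was 0.37 (SE 0.09, adjusted p = 0.150), which passed without vehicle replicate 4, at 0.44 (adjusted p = 0.0238, within 0.0238 to 0.437 over the fits that left out a library). Between the doses it was 0.03 (SE 0.07, adjusted p = 0.811), with a 95% interval from -0.12 to 0.18. *Ctsd* shares exonic bases with *Gm49369* on the same strand, which had 0 counts in all 12 libraries.

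*Ctsa* (chr2:164832873-164841032, plus strand) encodes cathepsin A, a serine carboxypeptidase that also shields the sialidase Neu1 and the galactosidase Glb1. It held 361, 335, 383 and 390.3 CPM with vehicle. It held 451, 442, 419 and 414 CPM at 10 µM. It held 382, 367, 385 and 385 CPM at 50 µM. The 10 µM libraries lay above all the others, and the 50 µM libraries lay inside the vehicle range.

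*Ctsa* fell by 0.18 on the log2 scale from 10 µM to 50 µM (SE 0.06, adjusted p = 0.0423). This call was near the threshold and passed in 2 of the 8 fits that left out a library, those without 10 µM replicate 4 or 50 µM replicate 3, with adjusted p-values from 0.0419 to 0.127. The call was also lost with no filter (adjusted p = 0.0844), with all 12 libraries in the fit (0.0555) and with equal replicate numbers taken as pairs (0.0744). Against vehicle the log2 fold change was 0.23 at 10 µM (SE 0.06, adjusted p = 0.217) and 0.06 at 50 µM (SE 0.07, adjusted p = 0.659). *Ctsa* shares exonic bases with *Neurl2* and *Pltp* on the opposite strand, at means of 1.15 and 14.5 CPM.

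**Figure D2:**
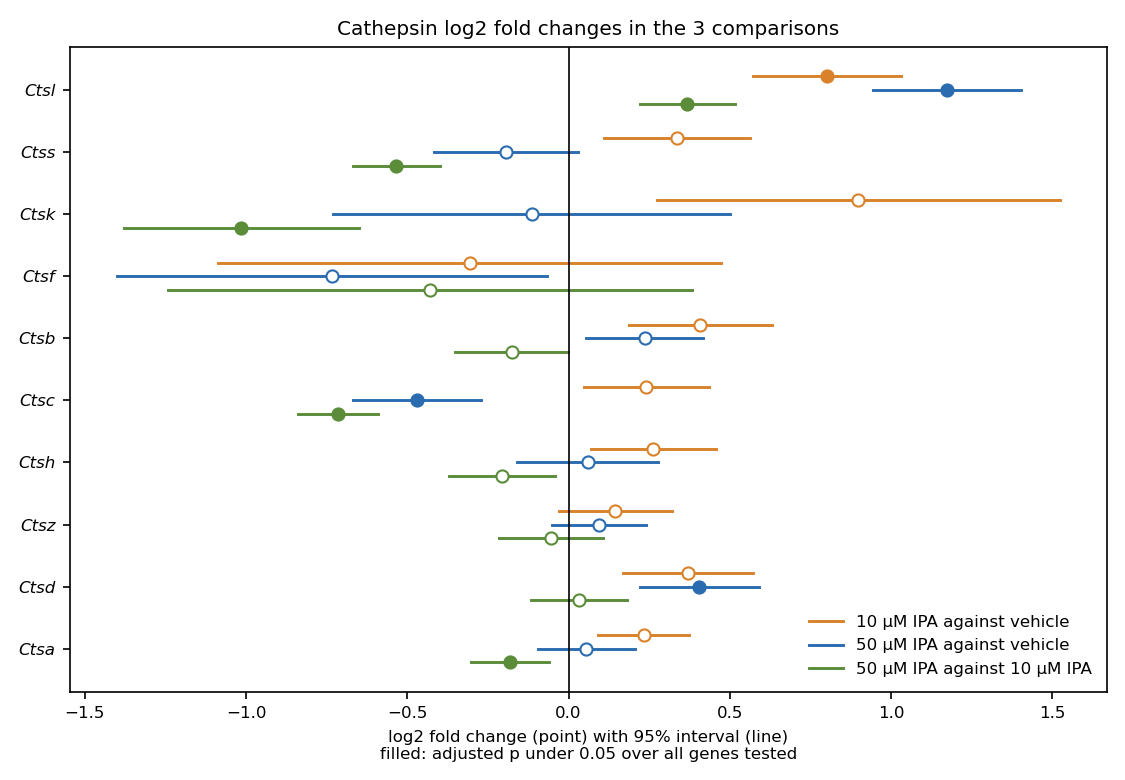
Log2 fold changes of the 10 cathepsin genes with their 95% intervals in the 3 comparisons, each fitted on its 8 libraries. Filled points had an adjusted p under 0.05. *Ctsl* was above 0 in all 3 comparisons, from 0.37 to 1.17. Between the doses *Ctsc*, *Ctss* and *Ctsk* fell by 0.71, 0.53 and 1.01, and *Ctsa* fell by 0.18.

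Ratios of counts within a library do not depend on its depth or scaling. The following pairs were chosen after their values were seen and were not tested. Reads on *Ctsl* were between 0.414 and 0.422 times those on *Ctss* with vehicle, between 0.534 and 0.610 times at 10 µM and between 1.06 and 1.12 times at 50 µM. The ratio of *Ctsl* to *Ctsc* was between 0.363 and 0.423 with vehicle, between 0.506 and 0.600 at 10 µM and between 1.15 and 1.33 at 50 µM. In both pairs *Ctsl* had fewer reads than its partner in all vehicle and 10 µM libraries and more in all 50 µM libraries.

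The ratio of *Ctsd* to *Ctss* was between 0.840 and 1.03 with vehicle, between 0.920 and 1.02 at 10 µM and between 1.37 and 1.5 at 50 µM. Here the vehicle and 10 µM groups overlapped and the 50 µM libraries stood apart. The 4 vehicle libraries differed more widely in *Ctsl* itself, with an SD of 60.0 CPM on a mean of 379.7 CPM, than in its ratio to *Ctss*, which had an SD of 0.00354 on a mean of 0.419.

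**Figure D3:**
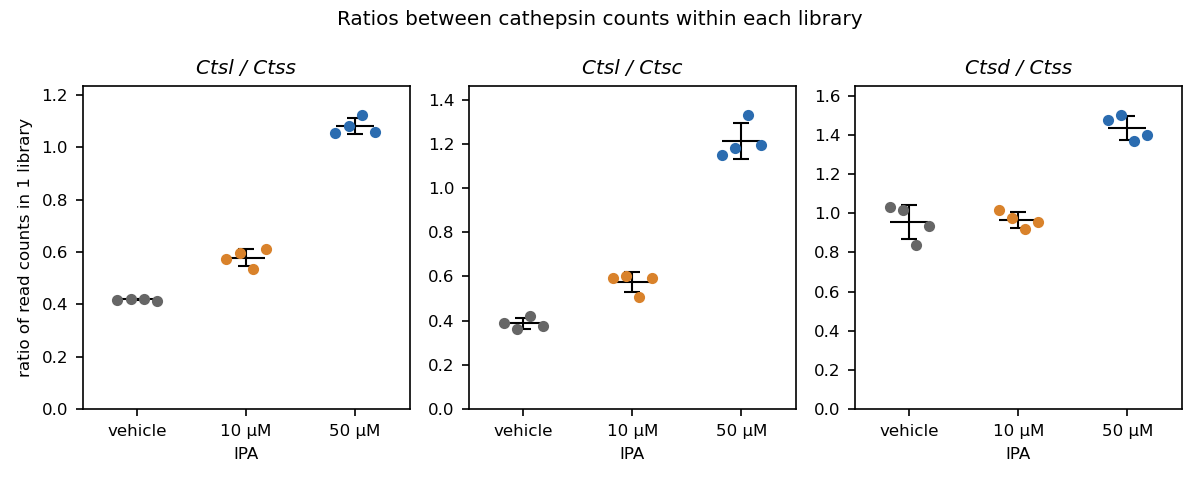
Ratios of read counts between 2 cathepsin genes in each library (linear axes from 0), in 3 groups of 4 libraries, with black marks for the mean ± SD. The *Ctsl* to *Ctss* ratio had means of 0.419, 0.578 and 1.08 with vehicle, 10 µM and 50 µM, and the *Ctsd* to *Ctss* ratio had means of 0.955, 0.967 and 1.44.

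Levels of different genes were compared per kilobase of annotated exon. With vehicle the order was *Ctss* (668 CPM per kilobase), *Ctsz* (609), *Ctsd* (365), *Ctsb* (199), *Ctsc* (168), *Ctsa* (77.9), *Ctsl* (58.5), *Ctsh* (49.0), *Ctsk* (2.82) and *Ctsf* (0.437). *Ctss* and *Ctsz* (SD 107 and 25.4) did not differ beyond their spread and changed places between the vehicle libraries. The ranges of *Ctsb* and *Ctsc* (SD 20.3 and 23.1) and of *Ctsl* and *Ctsh* (SD 9.24 and 6.20) overlapped over the libraries, although the first of each pair was above the second in each of the 4. At 50 µM *Ctsz* (647, SD 32.9) stood above *Ctss* (581, SD 28.7), and *Ctsl* (131, SD 9.12) stood near *Ctsc* (121, SD 4.81) and above *Ctsa* (80.5, SD 1.89). The order at 10 µM was that of the vehicle group, except that *Ctsl* (102) stood above *Ctsa* (91.5). This order depends on the length used. The exons of *Ctsl* span 6489 bases in all and 1971 bases in the shorter of its principal transcripts. Per kilobase of principal transcript, *Ctsc* (392.4, SD 53.8) stood above *Ctsb* (254, SD 25.9) with vehicle, *Ctsl* ranked in place 6 and *Ctsa* in place 8, below *Ctsh*. At 50 µM *Ctsl* ranked in place 4 on that scale, with 433 CPM per kilobase (SD 30.03), above *Ctsc* with 282 (SD 11.2).

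With vehicle and at 10 µM, most cathepsins had the same highest and lowest libraries. Vehicle replicate 2 was the lowest of its group for 9 of the 10 genes, and vehicle replicate 4 was the highest for 9. At 10 µM, replicate 1 was highest for 8 and replicate 4 lowest for 7. At 50 µM no such order showed, with replicates 1, 3 and 4 highest for 5, 3 and 2 genes and replicates 2 and 4 lowest for 5 each. Deviations of log2 CPM from the group means, over the 12 libraries, gave a positive Pearson r for all 45 pairs of members, from 0.22 to 0.94 with a median of 0.75. Libraries share their depth and cell makeup across genes, so these values are a description.

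Across the groups the pairs differed. Over the same 12 libraries without removal of the group means, 40 of the 45 pairs had a positive r, from -0.44 to 0.92. *Ctsl* and *Ctss* had an r of 0.94 in their deviations and of 0.02 in their levels. *Ctsl* and *Ctsc* had 0.76 and -0.35, while *Ctsc* and *Ctss* had 0.90 and 0.92, and *Ctsd* and *Ctsl* had 0.75 and 0.90.

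For each member that passed in a comparison, the 3 genes with the highest Pearson r of log2 CPM over the 12 libraries were taken from the 12597 other genes averaging 1 CPM or more. For *Ctsl* these were *Lgmn* (0.97), the asparaginyl endopeptidase of the lysosome, *Dhrs9* (0.97) and *Anxa4* (0.97). For *Ctsd* they were *Lgmn* (0.95), *Lgals3* (0.95) and *Litaf* (0.95), so that both members with their highest mean at 50 µM had *Lgmn* among their 3 nearest genes. For *Ctsc* they were *Asgr2* (0.98), *Ccr2* (0.98), the chemokine receptor of inflammatory monocytes, and *Pkm* (0.98). For *Ctss* they were *Vim* (0.98), *Mif* (0.98) and *Anxa2* (0.97). For *Ctsk* they were *Galnt9* (0.93), *Pgam1* (0.92) and *Adamtsl5* (0.92), and for *Ctsa* they were *Psap* (0.95), *C1qc* (0.95) and *Mfge8* (0.93).

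Genes that act with the cathepsins were described by lists. Among 11 genes for sorting and processing, none passed at 10 µM, 1 rose and 1 fell at 50 µM, and 3 fell between the doses, with median log2 fold changes of 0.04, -0.13 and -0.15. *Lgmn*, which helps to activate procathepsins, rose at 50 µM by 0.76 (SE 0.11, adjusted p = 0.000755), from 98.3 ± 17.0 to 166 ± 10.2 CPM (n = 4), as *Ctsl* and *Ctsd* did. At 10 µM *Lgmn* was at 0.61 (SE 0.12, adjusted p = 0.0645), which did not pass, with groups that did not overlap. *Sort1*, a sorting receptor, fell at 50 µM by 0.33 (SE 0.08, adjusted p = 0.0167). *Psap*, *Grn* and *Igf2r*, which encode prosaposin, progranulin and the large mannose 6-phosphate receptor, fell between the doses by 0.29, 0.23 and 0.47. Against vehicle these 3 genes were at 0.36, 0.16 and 0.22 at 10 µM and at 0.08, -0.06 and -0.24 at 50 µM, and none of these values passed. *M6pr*, the smaller receptor, held means of 422 CPM with vehicle, 426 CPM at 10 µM and 422 CPM at 50 µM.

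Among 12 inhibitors of cathepsins, 6 fell and 1 rose at 10 µM, 8 fell and 1 rose at 50 µM, and 3 fell between the doses. The medians were -0.54, -0.67 and -0.15. The stefin A genes and their relatives made up most of the falls, and they were listed with their earlier results known, so this count is not independent evidence of a direction. *Stfa1* fell by 1.12 at 10 µM (SE 0.10, adjusted p = 0.00304) and fell by 1.71 at 50 µM (SE 0.12, adjusted p = 2.35e-06). The copies in this cluster are near identical, and how reads were split between them is uncertain. *Serpinb6a*, an inhibitor of serine proteases including cathepsin G, rose by 0.47 and 0.52 at the 2 doses. *Cst3*, the secreted inhibitor cystatin C and the most abundant of the list, held means of 721, 758 and 725 CPM and did not pass in any comparison.

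Of 6 serine proteases that cathepsin C can activate, 5 were tested. At 50 µM, 4 of the 5 fell and none rose, with a median of -0.70, and between the doses 3 fell, with a median of -0.48. *Elane*, neutrophil elastase, fell by 1.29 at 50 µM (SE 0.17, adjusted p = 0.000355), and *Prtn3*, proteinase 3, fell by 0.95 (SE 0.13, adjusted p = 0.000351). *Ctsg* and *Prss57* fell by 0.44 and 0.70. At 10 µM none of the 5 passed and their median was -0.22, whereas *Ctsc* was at 0.24. *Elane*, *Prtn3* and *Prss57* fell both against vehicle and against 10 µM, as *Ctsc* did.

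The 8 partners and antigen-processing genes held 1 that rose and 2 that fell at 50 µM, and 1 that rose and 3 that fell between the doses, with medians of 0.02 and -0.11. None passed at 10 µM, where the median was 0.07. *Glb1*, which cathepsin A protects, rose by 0.51 at 50 µM (SE 0.08, adjusted p = 0.00149), while *Neu1* went from 123 to 135 CPM and did not pass. *H2-Aa* and *H2-Ab1*, chains of MHC class II, fell by 0.35 and 0.44 at 50 µM and by 0.40 and 0.50 between the doses. *Cd74*, the invariant chain cut by cathepsin S, fell between the doses by 0.24 (SE 0.07, adjusted p = 0.0278), the comparison in which *Ctss* fell.

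Of 8 regulators, none passed at 10 µM. *Irf8*, a factor of monocyte and dendritic cell development, rose by 0.40 at 50 µM and by 0.29 between the doses. *Tfec*, a relative of TFEB, fell by 0.39 and 0.51 in these comparisons. *Tfeb*, *Tfe3* and *Mitf* did not pass in any comparison, with log2 fold changes between -0.13 and 0.23. The medians of the list were 0.02 at 10 µM, -0.01 at 50 µM and -0.04 between the doses.

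The 15 other lysosomal hydrolases and membrane proteins had 2 rises (*Gaa* and *Lamp1*, by 0.40 and 0.24) and 2 falls (*Galc* and *Ppt1*, by 0.40 and 0.31) at 50 µM. Between the doses 3 fell (*Gusb*, *Galc* and *Ppt1*), and at 10 µM none passed. Their medians were 0.11 at 10 µM, 0.18 at 50 µM and 0.02 between the doses, where those of the cathepsins were 0.30, 0.06 and -0.19. The 4 cathepsin genes outside the 10 (*Ctse*, *Ctsg*, *Ctso* and *Ctsw*) gave 1 call, the fall of *Ctsg* at 50 µM, and had medians of -0.06, -0.25 and -0.14. At 10 µM, where edgeR called no gene of 6 of the lists, unadjusted p-values were under 0.05 for 3 of 11 sorting genes, 3 of 15 other hydrolases, 1 of 8 regulators, 1 of 5 serine proteases, 1 of 4 other cathepsins and 0 of 8 partners, against 8.78% of all genes. DESeq2 called 2 of the sorting genes there (*Psap* and *Lgmn*) and none of the other 5 lists.

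**Figure D4:**
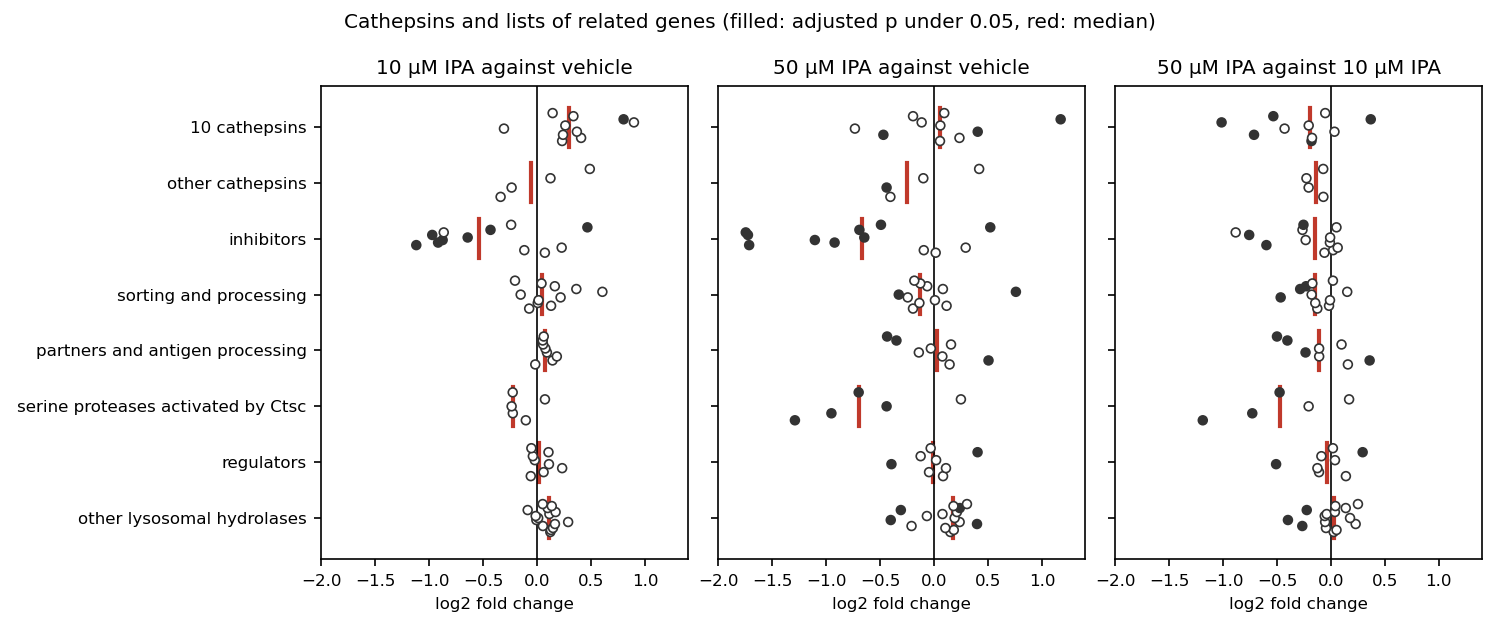
Log2 fold changes of the 10 cathepsins and of the genes of 7 related lists in the 3 comparisons. Each point is a gene, filled where its adjusted p was under 0.05, and red lines are medians. At 50 µM the inhibitors had a median of -0.67 and the serine proteases activated by cathepsin C one of -0.70, whereas the cathepsins had one of 0.06.

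Markers of some of the cell types that such cultures can hold differed between the groups. The summed level of 9 macrophage markers was 1701 to 1908 CPM with vehicle, 2027 to 2232 CPM at 10 µM and 1715 to 1834 CPM at 50 µM, highest at 10 µM as 7 of the cathepsins were. *Csf1r* took the largest part of this sum, with means of 939, 1002 and 739 CPM, and *Adgre1* alone had a higher value at 50 µM than at 10 µM. At 10 µM 2 of the 9 rose (*C1qb* and *Mrc1*), and DESeq2 called 4 (these and *C1qa* and *C1qc*). At 50 µM 3 fell (*Mrc1*, *Apoe* and *Csf1r*) and 1 rose (*Adgre1*), where *Ctsl* and *Ctsd* rose and *Ctsc* fell, and between the doses 7 fell and 1 rose (*Adgre1*). The sum of 4 monocyte markers was 1004 to 1548 CPM, 1367 to 1504 CPM and 723 to 935 CPM, with 2 falls at 50 µM (*Ccr2* and *F13a1*) and 3 between the doses. *Ccr2* fell by 0.76 at 50 µM, where *Ctsc* fell, and fell by 1.31 between the doses, where *Ctsc* and *Ctss* fell. At 10 µM none of the 4 monocyte markers passed, and 3 were above 0 and 1 below. There *Ccr2* was at 0.54 (SE 0.12, adjusted p = 0.0975) with groups that did not overlap, and DESeq2 called it. *F13a1* was at 0.70 there (SE 0.34, adjusted p = 0.603). Within groups, the macrophage sum was lowest in vehicle replicate 2 and, at 10 µM, highest in replicate 1 and lowest in replicate 4, as most cathepsins were. With vehicle it was highest in replicate 3, whereas most cathepsins were highest in replicate 4. The monocyte sum also followed them in part. In the vehicle group the monocyte sum was lowest in replicates 2 and 1 (1004 and 1011 CPM) and highest in replicate 4. At 10 µM it was lowest in replicate 1 (1367 CPM), which was highest for 8 of the 10 cathepsins.

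The sum of 10 neutrophil markers was 20124 to 28443 CPM with vehicle, 18642 to 21657 CPM at 10 µM and 14126 to 19709 CPM at 50 µM, and 6 of the 10 fell at 50 µM, where *Ctsc* fell. *Elane* is in this list and in that of the targets of cathepsin C. The sum of 6 osteoclast markers was 132 to 165 CPM, 188 to 236 CPM and 152 to 183 CPM. Of these 6, *Calcr* was at 0 in all 12 libraries and *Oscar* was too low to be tested, while *Acp5* and *Atp6v0d2* rose at both doses, by 0.71 and 0.77 at 10 µM. *Ocstamp* rose at 50 µM, and *Dcstamp* fell there by 0.39 and between the doses by 0.70. Sums of 6 dendritic cell markers (686 to 743, 721 to 860 and 702 to 879 CPM) and of 4 mast cell markers (187 to 227, 154 to 200.4 and 155 to 193 CPM) overlapped between the groups, and 2 of the dendritic cell markers (*Zbtb46* and *Ccr7*) rose and 1 of the mast cell markers (*Kit*) fell at 50 µM. Sums of 3 B cell markers were 7.30 to 14.1, 10.9 to 19.3 and 20.03 to 32.2 CPM, and all 3 rose at 50 µM and between the doses, and those of 5 stroma markers were at most 4.05 CPM. With vehicle, the neutrophil sum was highest in replicate 4 and the osteoclast sum was lowest in replicate 2, as most cathepsins were, while the neutrophil sum was lowest in replicate 1. At 10 µM, replicate 4, the lowest for 7 of the 10 cathepsins, had the lowest osteoclast sum (188 CPM) and the highest neutrophil sum (21657 CPM). The part of any of these markers in the differences of the cathepsins was not tested.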

How the data were processed

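RNA-seq libraries of cultured bone marrow cells, 12 in all and 4 per group, were analysed. The authors used Atropos for trimming, hisat2 2.2.1 for alignment to mm10 and featureCounts 2.0.1 for counts on Ensembl genes (versions per the submitters' processing notes). The deposited values are raw counts per gene, without normalization or a filter. Sample labels gave the groups. For 10 µM replicate 3, whose title is that of replicate 2, the library name gave the number.

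A gene was tested if 2 or more of the 12 libraries held over 0.5 CPM of it. Each pair of groups was compared on its 8 libraries with edgeR 4.0.16 in R 4.3.3 (TMM, glmQLFit and glmQLFTest), with Benjamini-Hochberg adjustment over all 14894 genes and no block for replicate numbers. SE is the log2 fold change divided by the square root of F, and intervals are 95%. The script was tested on simulated data. Alternatives were DESeq2 1.42.0, limma-voom 3.58.1, DESeq2's size factors, no filter, a minimum of 10 counts per library, all 12 libraries in the fit, a replicate block, and leaving out each library.

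The members and the gene lists were chosen with earlier results of these data known. All members are named; from other lists, genes that passed in a comparison and the most abundant ones could be named. Markers and lists were written from general knowledge, and 2 of their genes are not reported here. Library totals limit the precision of low genes, and counting error is covered only within the spread of the libraries. Sequences are RefSeq's, read from GRCm38.p6 windows, and plots were drawn with matplotlib.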

Additional observations from a re-analysis of the deposited data

Results flagged for a closer look

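Each of the 10 cathepsins was checked in each of the 3 groups for a library that stands far from the other 3, and 2 of the 30 checks found one, where chance gives about 1 in 20. *Ctsf* was at 3.30 CPM (91 reads) in 10 µM replicate 1, against 1.24 to 1.26 CPM in the other libraries of that group. Without this library the log2 fold change of *Ctsf* between the doses was 0.08, against -0.43 with it. *Ctsh* was at 265 CPM in 50 µM replicate 3, against 210.5 to 219.5 CPM in the others, and without it *Ctsh* fell between the doses, by 0.28 on the log2 scale (adjusted p = 0.00835, within 0.00835 to 0.220 over the fits that left out a library).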

How the results depend on the processing

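At 10 µM against vehicle, the count of cathepsins that passed depended on the test. It was 1 in the fit reported, 4 with DESeq2 (*Ctsa*, *Ctsb*, *Ctsd* and *Ctsl*), 3 with no filter (*Ctsb*, *Ctsd* and *Ctsl*), 0 with a replicate block, and 0 to 3 when 1 library was left out. It was 0 without vehicle replicate 1 or 10 µM replicate 2 and 3 without vehicle replicate 4. All genes that passed numbered 61 in the fit reported, 250 with DESeq2, 150 with no filter, 118 with all 12 libraries, 3 with a replicate block, and 4 to 122 when 1 library was left out. At 50 µM against vehicle, leaving out a library gave 1248 to 2689 genes in place of 2010, with the fewest without vehicle replicate 3, and 3 to 4 cathepsins. Between the doses it gave 1604 to 2269 genes in place of 2289, and 4 to 6 cathepsins.

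The labels do not say whether equal replicate numbers mark the same mouse. The correlation of same-numbered deviations ran from -0.24 to 0.14. In the 3 pairs of groups, 1, 1 and 2 of 4 libraries correlated best with their own number. With 4 libraries per group this check cannot exclude pairs. The study used a repeated-measures ANOVA for its flow cytometry of such cultures. With the block, *Ctsl* at 10 µM had a log2 fold change of 0.81 (0.80 without it) and an adjusted p of 0.170, the highest of its 7 alternative fits. *Ctsa* between the doses had one of -0.18, as without the block, and an adjusted p of 0.0744. *Ctsa* was also lost with no filter (0.0844) and with all 12 libraries (0.0555), and *Ctsh* passed between the doses with no filter (0.0420). The calls of *Ctsc*, *Ctsd* and *Ctsl* at 50 µM and of *Ctsc*, *Ctsk*, *Ctsl* and *Ctss* between the doses held in all 7 alternative fits and without any one library. DESeq2's size factors and the minimum of 10 counts changed no call of a cathepsin.

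Directions turned only where no call was made. The *Ctsk* value at 50 µM was 0.015 with limma-voom and -0.31 to 0.14 over the fits that left out a library. Over such fits *Ctsh* at 50 µM ran from -0.024 to 0.14, and between the doses *Ctsf* ran from -0.68 to 0.084, *Ctsz* from -0.11 to 0.019 and *Ctsd* from -0.012 to 0.10. Without the 100 genes with the most reads, the cathepsins took 0.725%, 0.919% and 0.817% of the reads of the 3 groups. Where the cause of a change is not plain from the construction of the fit, the cause was not tested. *Ctsf* and *Ctsk* rest on fewer than 220 reads per library, which limits their precision.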
